A study of Mus musculus with 9 samples.

Results

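Kidney RNA of pectolinarigenin-treated nephropathic mice (PEC) was compared with that of untreated nephropathic mice (HN), gene by gene. Of the 55385 genes in the table, the 15892 with a mean FPKM of at least 0.5 over these 6 of the 9 libraries were tested; the remaining 3 libraries are from healthy kidneys (Control). All mice were male C57BL/6J, 8 to 10 weeks old at the start. On alternate days over 4 weeks HN mice were given adenine at 0.16 g/kg together with oxonate, as the potassium salt, at 2.4 g/kg; PEC mice were given the same agents and pectolinarigenin at 25 mg/kg per day by mouth over the same 4 weeks, and Control mice neither. Doses are from the study's methods, since the labels give none for pectolinarigenin. Each library is from 1 mouse of the 8 per group in the study. The numbers of the HN libraries (4, 8, 12), the PEC libraries (1, 2, 3) and the Control libraries (2, 4, 5) are the labels' own, and values are listed in that order. The titles of the Control samples read HN mice; they were grouped by the disease state given, which is control, and each Control value rests on this. The comparison asks which transcripts differ in the diseased kidney when the flavonoid is given. Total counts were 74315544, 81069646 and 74212324 in HN and 74397038, 65583215 and 57714111 in PEC. A level is an FPKM (fragments scaled to exon length and to sequencing depth) computed anew from the counts and not the FPKM of the authors. Its depth is the total count of the tested genes times the TMM factor. This factor sets libraries on 1 scale through the bulk of the genes. A gene was called when the fold was at least 1.5 (log2 0.585) and the adjusted p at most 0.05. The SE beside a log2 fold change is its size divided by the root of the F statistic of the test. That statistic is from 1 fit of all 9 libraries, so the SE also rests on the spread in Control. The n beside it counts the HN and PEC libraries.

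Adenine is converted to an insoluble product that crystallizes in the tubule lumen, and oxonate blocks uricase, so that urate accumulates; tubules are injured, and the interstitium gains macrophages and matrix. TGF-beta, acting through receptor kinases and SMAD proteins, is the best known inducer of collagen and fibronectin in fibroblasts, and IL-6 family cytokines act through JAK kinases and STAT proteins. Proximal tubule cells, which normally burn fatty acids and carry urate, phosphate and amino acids across the epithelium, lose these transcripts when injured.

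Mitochondrial genes held 6.01, 6.22 and 6.34% of counts in HN, 13, 10.3 and 13.6% in PEC and 13.3, 12.9 and 16.3% in Control. PEC and Control overlapped, and HN lay below both. Ribosomal RNA loci held 0.0108, 0.0165 and 0.0151% in HN, 0.0113, 0.0109 and 0.00924% in Control and 0.313, 1.74 and 0.311% in PEC, so that PEC stood apart from both. The 10 most counted genes held 9.46, 9.37 and 8.53% in HN, 15.1, 14.9 and 15.9% in PEC and 16.6, 16.1 and 18.8% in Control. For all 3 measures PEC and HN did not overlap, and the exact permutation p was 0.1 (two-sided), the smallest that 3 against 3 libraries can give. The housekeeping gene Gapdh shows a further difference. Its own counts were 1235, 1487 and 1343 in HN, 17147, 15270 and 15619 in PEC and 1465, 1189 and 1977 in Control. Together with the 212 genes that share at least 1 word of 50 bases with it, the most counted of them processed pseudogenes, it gave 647, 616 and 626 CPM (counts scaled to depth) in HN and 1592, 1523 and 1269 in PEC. The gene itself held 2.23, 2.49 and 2.38% of that sum in HN, 2.22, 1.81 and 2.71% in Control and 14, 15.2 and 20.7% in PEC. The split of reads between Gapdh and its copies thus set the PEC libraries apart from both other groups, and how reads that fit several genes were counted is not given in the sources used here. Changes of genes with near-identical copies are therefore uncertain.

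**Figure D1:**
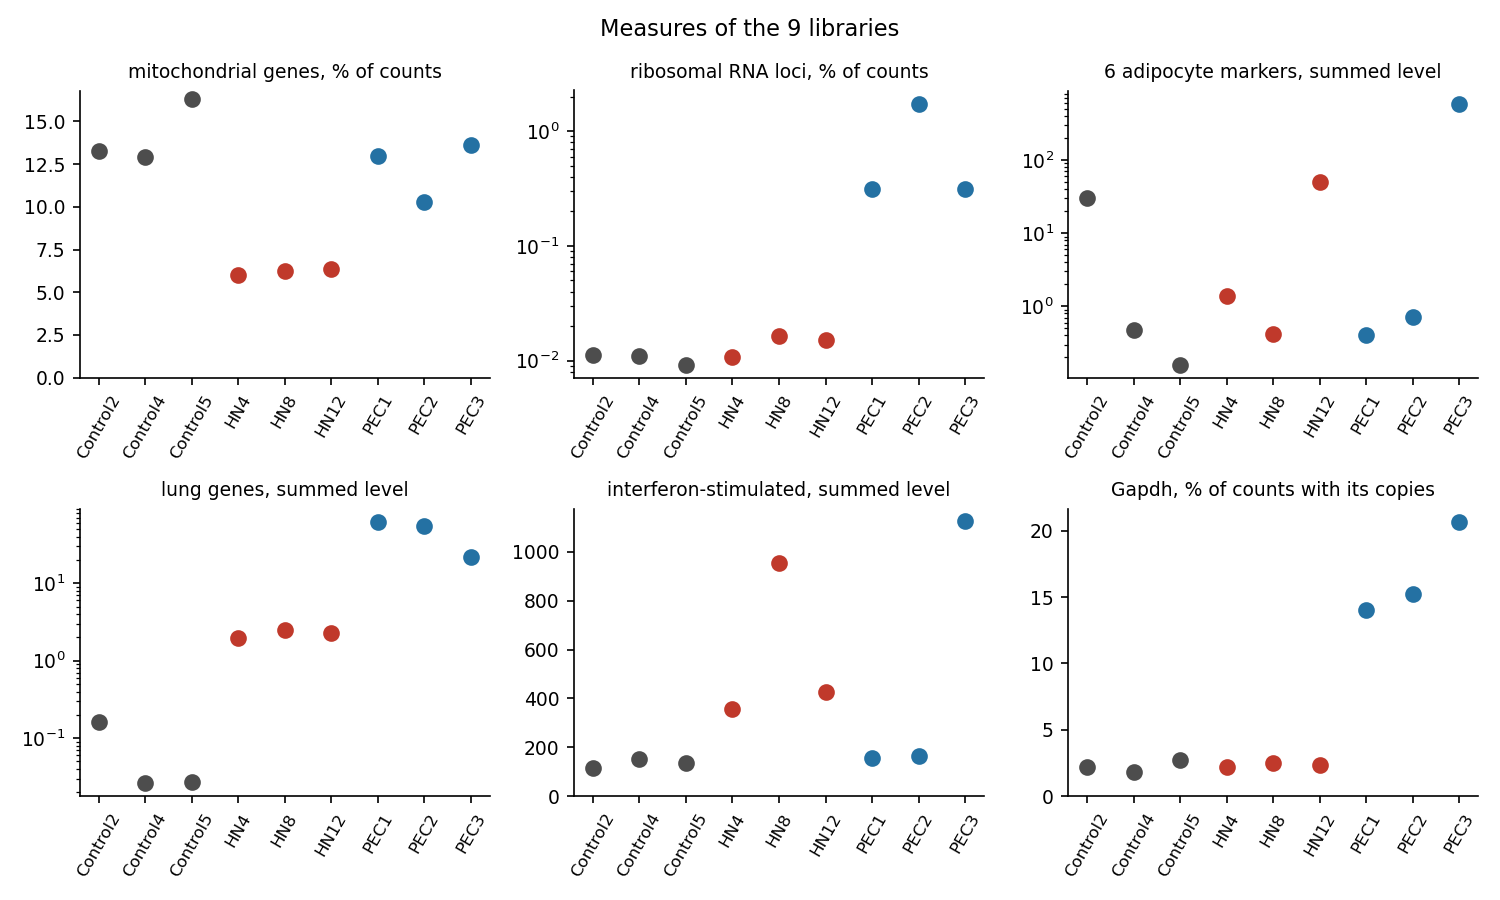
Each panel plots 1 measure for the 9 libraries (grey Control, red HN, blue PEC): the percent of counts on mitochondrial genes and on ribosomal RNA loci (log axis), the summed level (TMM-scaled FPKM) of 6 adipocyte markers and of lung genes (both log axes) and of interferon-stimulated genes, and the percent of the counts of Gapdh and its copies that fell on Gapdh. PEC3 lies at 591 for the adipocyte markers, and HN8 and PEC3 lie highest for the interferon-stimulated genes.

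Of 18 adipocyte markers 16 were tested, 4 were called higher and none lower (over all genes 16.7% and 17.6%), with a median log2 fold change of 2.94; without PEC3 the median was -1.68 and 3 were called. Control kidney held 13 of the 18 at a mean level of at least 0.5, and the most abundant, Pck1, is a gluconeogenic enzyme of the proximal tubule. For some members the Control mean rested on Control2. Control counts were 181, 0 and 0 for Adipoq, 912, 15 and 5 for Cfd and 285, 0 and 0 for Ucp1. The summed level of the list was 246, 209 and 251 in HN and 401, 649.5 and 1271 in PEC. The 6 markers that kidney hardly expresses (Adipoq, Plin1, Cidec, Cfd, Ucp1, Cidea) summed to 1.4, 0.423 and 50.4 in HN, 29.9, 0.482 and 0.16 in Control and 0.41, 0.722 and 591 in PEC (exact permutation p = 0.9, two-sided). Adiponectin (Adipoq) stood at 0.0844, 0 and 4.49 in HN and 0.0378, 0 and 67.5 in PEC, adipsin (Cfd) at 1.11, 0.0672 and 35.1 in HN and 0, 0.542 and 353 in PEC and the brown fat uncoupler Ucp1 at 0, 0 and 3.23 in HN and 0.0638, 0 and 56 in PEC. PEC3 was the highest for each, and HN12 the next; these 3 genes were chosen after their values were seen. The called members were Gpd1 (1.00), Lipe (levels 2.33, 2.24 and 2.45 in HN and 4.23, 4.16 and 11.5 in PEC), Plin4 (2.93) and Pck1 (1.40); without PEC3 Lipe stood at a log2 fold change of 0.86, still called, and Plin4 at 0.59, not called. Scgb1a1, the secretoglobin of airway club cells, had 4 counts in the HN libraries together and 2076, 1577 and 541 in PEC. Surfactant protein C (Sftpc) had no count in HN and 193, 214 and 30 in PEC, at least 197-fold higher against a floor of 3 counts over the HN group. Neither gene had a count in Control, and the lung genes summed to 1.98, 2.52 and 2.27 in HN, 61.6, 55.5 and 21.6 in PEC and 0.161, 0.0263 and 0.0271 in Control. Whether the PEC libraries were prepared or sequenced apart from the others is not given in the sources used here, and a part of this in the differences of PEC from HN is not excluded. Surfactant protein D (Sftpd), chosen after its values were seen, went the other way, with 395, 549 and 457 counts in HN and 185, 96 and 246 in PEC (-0.94, not called). Of 13 airway and urothelial markers 9 were tested, 2 were called higher and none lower (over all genes 16.7% and 17.6%, median 1.19). The list summed to 10.5, 13.3 and 17.3 in HN and 67.9, 60.4 and 62.7 in PEC. Scgb1a1 was its most abundant gene, and 5 of 13 reached 0.5 in Control. Foxj1, the regulator of ciliated cells, was not called (-1.10). Without PEC3 the median of the list was -1.01. The 4 uroplakins of the bladder and pelvis lining summed to 2.72, 3.14 and 6.34 in HN and 2.85, 1.61 and 31.7 in PEC, PEC3 being the highest. Erythroid markers were called higher in 6 of 6 tested (of 8 listed, over all genes 16.7%, median 2.07). Their summed levels were 88.7, 69.4 and 52.2 in HN, 354, 431 and 367 in PEC and 460.1, 441 and 726 in Control. Hba-a1 was the most abundant. The globins share over 50% of their words with other genes, so that the values of Hbb-bs, Hbb-bt, Hba-a1 (1.91) and Hba-a2 (2.09) are uncertain. Hepatocyte markers gave 5 higher and 1 lower of 8 tested (of 11, over all genes 16.7% and 17.6%) and a median of 1.00. Their summed levels were 191, 203 and 187 in HN and 317, 267 and 268 in PEC. Of these 11, 8 are expressed in Control kidney, and albumin (Alb) rose, at 0.587, 0.613 and 0.351 in HN and 4.43, 2.97 and 5.97 in PEC, while Apob, the structural protein of lipoproteins, fell, at 7.75, 7.94 and 7.11 in HN and 1.17, 1.23 and 1.12 in PEC. The apolipoproteins Apoa1 (2.46) and Apoa2 (1.79) and the protease inhibitor Serpina1a (1.15) rose, and the carrier Ttr, the most abundant, was not called (0.32). Skeletal muscle markers gave 1 call, higher, in 2 tested of 12 (over all genes 16.7%, median 1.44). Their summed level was 1.14, 1.43 and 1.67 in HN and 2.15, 2.52 and 4.36 in PEC. The most abundant was Mylpf, called, at 1.52, then Tnni2, not called, at 1.36. Myh1, Myh2 and Myh4 had 0 counts in all 6. Adrenal cortex markers gave no call in 3 tested of 10 (median -0.09, summed level 16.3, 17.9 and 18 in HN and 16.9, 15.8 and 16.2 in PEC, most abundant Fdx1 at -0.09 and Akr1b7 at -0.09, with Cyp11b2 at 0). The part of fat, lung, blood or other tissue in the results below was not tested beyond the fits without PEC3 and with fat markers as a covariate. Here and below, values beside left-out libraries are log2 fold changes, and the pairs given for a list are its numbers called higher and lower in fits where either moved by over 1.5 times, or from or to 0 (removal is that of length and GC dependence). No call remained for Apoa1 (2.22 to 2.91 without HN4, HN8, HN12, PEC1 or PEC3) and Plin4 (0.59 to 3.14 without HN4, HN8, HN12 or PEC3) with 1 library left out. The fold moved by over 1.5 times without 1 library for Lipe (0.86 without PEC3). After removal of length and GC dependence Apoa1 (2.04) was not called. A call appeared only with 1 library left out for Foxj1 (-1.10 without Control2 and -1.10 without Control5) and Sftpd (-1.38 without PEC3). Pairs for airway and urothelial markers: 2 and 1 without Control2, Control5 or PEC3, 4 and 0 without PEC2. Pairs for hepatocyte markers: 3 and 1 without HN4, HN8, HN12, PEC1 or PEC3 or after removal. Pairs for adrenal cortex markers: 1 and 0 after removal.

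The calls also followed properties of the genes. Among the shortest of 5 equal bins of genes (53 to 1569 exon bases) 34.3% were called higher and 11.4% lower in PEC; among the longest bin (6785 bases and more) 5.01% were called higher and 32.2% lower. The median log2 fold change fell from 0.51 in the shortest to -0.35 in the longest bin. When each library's dependence on length and GC content had been removed, the longest bin gave 14.5% higher and 12.3% lower. Among the 1333 genes with over 50% of their words in another gene, 33.7% were called higher, against 14.5% of the 9672 with none. Of the 5449 calls, 3649 were made in the same direction after removal of length and GC dependence, 4845 without PEC3, 5240 with the 6 adipocyte markers as a covariate (an alternative chosen after seeing the data), and 4032 in every fit that dropped a single mouse.

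**Figure D2:**
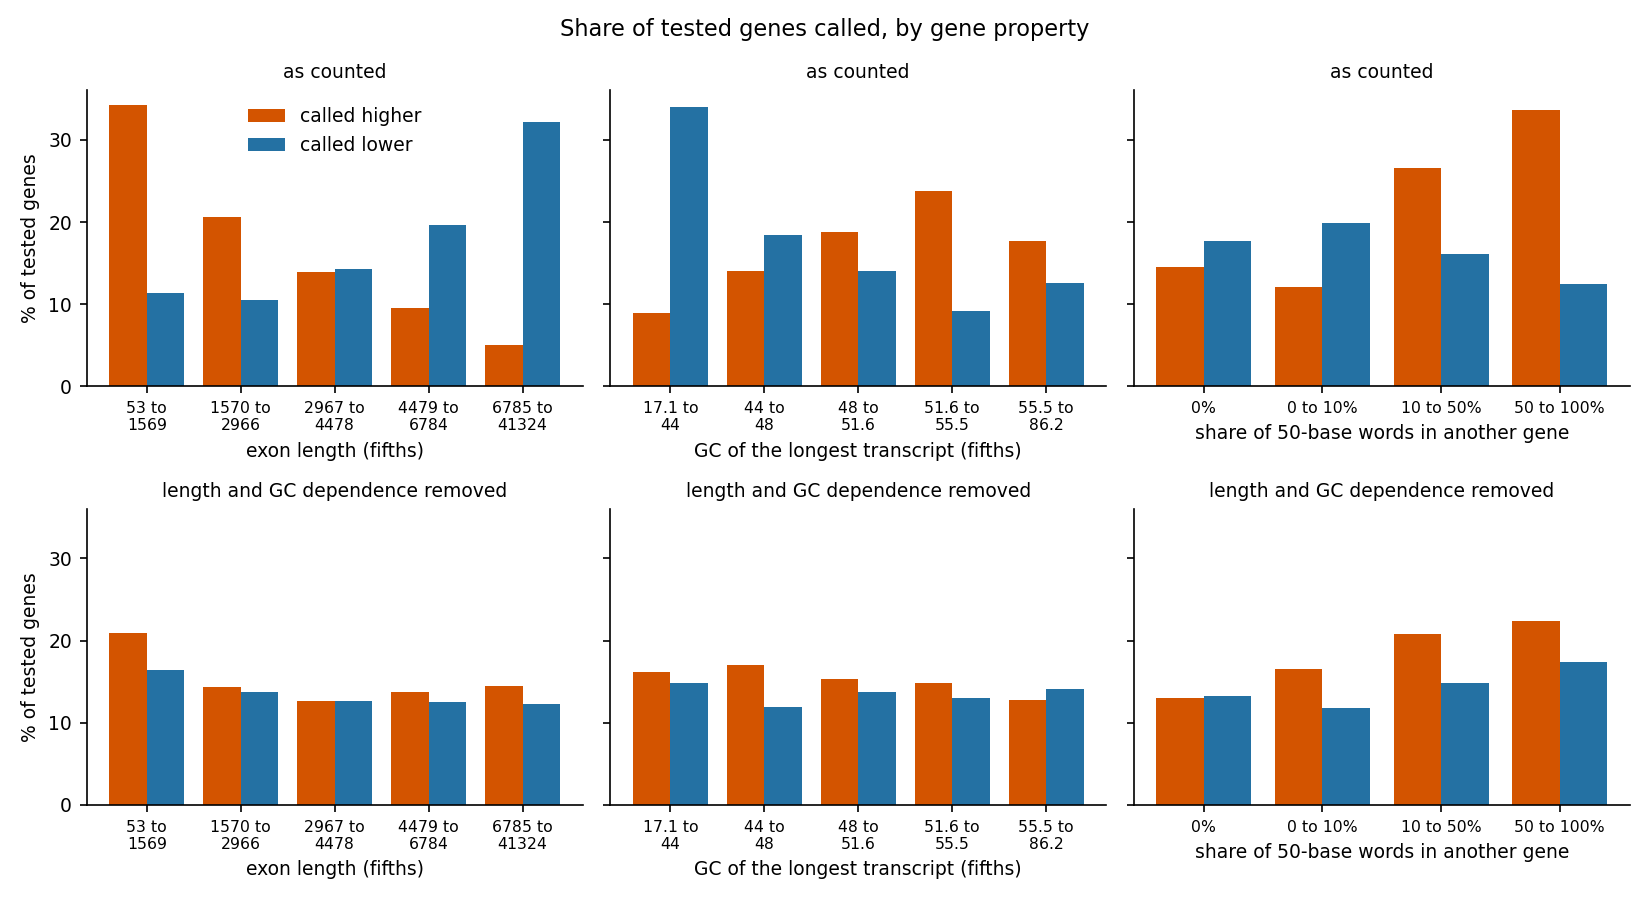
Bars give the percent of tested genes called higher (orange) or lower (blue) in PEC than in HN, by 5 bins of exon length in bases, 5 bins of GC content in percent and the share of 50-base words found in another gene, as counted (top) and with length and GC dependence removed (bottom). From the shortest to the longest bin, the percent called higher goes from 34.3 to 5.01 as counted and from 20.9 to 14.5 after the removal.

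With TMM factors, 5449 of 15892 genes (34.3%) were called: 2647 higher in PEC (16.7% of tested genes) and 2802 lower (17.6%). The median over all tested genes was -0.01. In 9891 genes (62.2%) the groups did not overlap, where chance gives 10%; in 4792 (30.2%) every PEC library was higher and in 5099 (32.1%) every one was lower. Without PEC3, 2599 genes were called higher (16.4%) and 2821 lower (17.8%). After removal of length and GC dependence the counts were 2422 (15.2%) and 2142 (13.5%), and with PEC3 left out as well 2290 (14.4%) and 2248 (14.1%). The balance of directions depended on the scaling: 48.6% of calls were higher with TMM factors, 56.4% with upper-quartile factors, 29.8% with total counts alone and 29.2% with limma on log2(FPKM + 1). With total counts and with limma the median of all genes was -0.23 and -0.19. No count was seen in any PEC library for 53 tested genes, 49 of them immunoglobulin variable segments, and in any HN library for 15. That fewer cells of a type and less RNA per cell give the same bulk signal holds for every gene below.

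**Figure D3:**
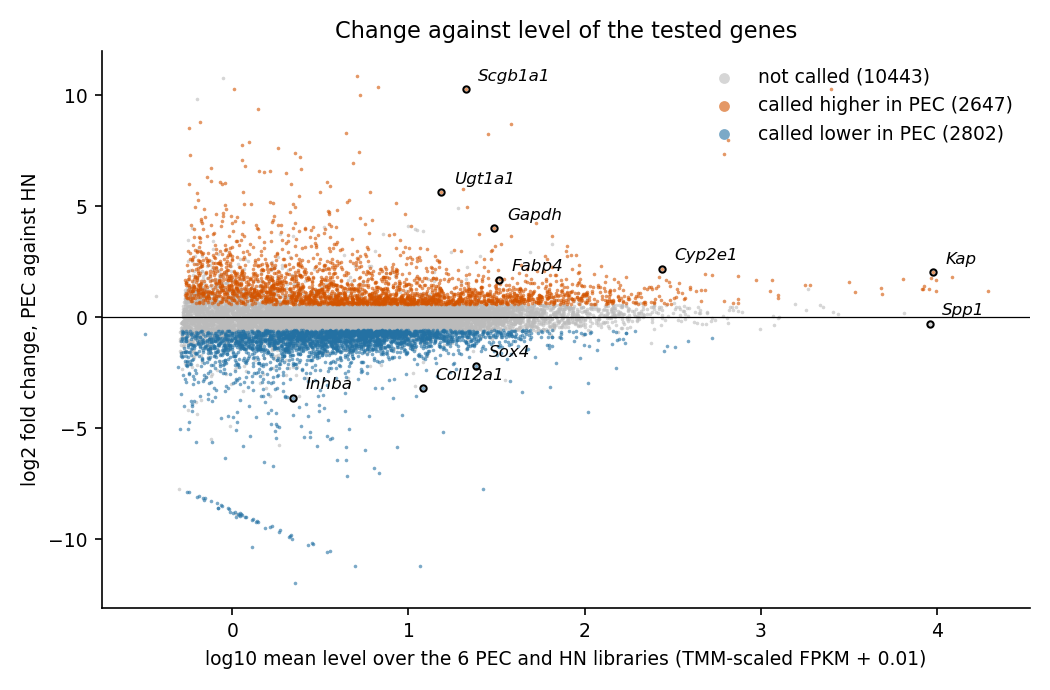
Each point is 1 of the 15892 tested genes, its log2 fold change of PEC against HN plotted over its mean level in the 6 libraries (log10 of TMM-scaled FPKM + 0.01), orange where called higher and blue where called lower. Calls in both directions occur over most of the range, but nearly all calls at the highest levels are higher ones, and most points of the line at the lower left are genes with no count in PEC.

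The largest changes were taken among called genes with non-overlapping groups and FPKM averaging 5 or more that stayed called in each fit without 1 mouse and after removal of length and GC dependence, with antibody and T cell receptor genes, pseudogenes, mitochondrial genes, ribosomal and small RNAs and genes with Gm or Rik names left out. AY036118, annotated as a lincRNA within the ribosomal RNA gene CT010467, was counted as ribosomal and left out by name, a choice made with its values known; otherwise it would be the largest rise (10.27), and Azgp1 would not be among the 10. The largest fall among them was that of Jchain, which joins secreted antibody units: 11.9, 24.6 and 24.7 in HN and 1.65, 2.64 and 0.91 in PEC (log2 fold change -3.56 ± 0.54 (SE, n = 3 and 3), adjusted p = 8.34e-04). Control stood at 2.06, 4.36 and 6.39. Next came Col12a1, a collagen of fibril surfaces, at 21.1, 22.7 and 21.4 in HN and 1.35, 3.23 and 2.56 in PEC (log2 fold change -3.19 ± 0.30 (SE, n = 3 and 3), adjusted p = 9.09e-05), and Rell1, a TNF receptor family relative, at 12.6, 11.3 and 10.9 in HN and 0.903, 1.69 and 1.29 in PEC (log2 fold change -3.17 ± 0.22 (SE, n = 3 and 3), adjusted p = 3.08e-05). Rps6ka3 (-2.83), a kinase downstream of ERK, Nek7 (-2.77), an activator of the NLRP3 inflammasome, Sacm1l (-2.66), a phosphoinositide phosphatase, Arhgap5 (-2.53), a GTPase-activating protein, Mapk4 (-2.49), an atypical kinase, Cebpb (-2.48), a transcription factor of the acute phase response, and Col8a1 (-2.41), a short-chain collagen, completed the 10 largest falls, given as log2 fold changes. Sacm1l, Mapk4 and Rps6ka3 had Control levels near HN, as in Sacm1l with 27.3, 33.4 and 28.7 against 31.3, 21.8 and 22.2 in HN and 3.52, 4.95 and 3.47 in PEC. For Arhgap5 every Control library lay above every HN library. The largest rise apart from Scgb1a1 (10.26) was that of Ugt1a1, an enzyme that conjugates bilirubin, at 0.252, 0.278 and 1.28 in HN and 42.3, 14.6 and 33.3 in PEC (log2 fold change 5.64 ± 0.73 (SE, n = 3 and 3), adjusted p = 3.88e-04). It shares 58.2% of its words with other genes, and Control stood at 0.317, 0.2 and 0.184, so the value is uncertain. Hpd, an enzyme of tyrosine breakdown, stood at 2.73, 1.61 and 1.4 in HN and 14, 15.6 and 22.2 in PEC (log2 fold change 3.18 ± 0.37 (SE, n = 3 and 3), adjusted p = 2.23e-04), with 27.8, 30.7 and 14.3 in Control. The zinc-binding glycoprotein Azgp1 stood at 8.01, 8.79 and 7.98 in HN and 56.4, 51.9 and 44.1 in PEC (log2 fold change 2.62 ± 0.12 (SE, n = 3 and 3), adjusted p = 8.35e-06). In both genes PEC overlapped Control (43.9, 55.1 and 51.2 for Azgp1). Nccrp1 (3.05), a sugar-binding F-box relative, the kallikrein Klk1b5 (3.09), AC109619 (2.97), the globins Hbb-bs (3.64) and Hbb-bt (2.98) and Gapdh (4.01) were the others. Leaving out 1 library moved the fold by over 1.5 times for Cebpb (-3.09 without PEC3), Nek7 (-1.98 without HN4), Scgb1a1 (13.48 without HN12) and Ugt1a1 (6.82 without HN12). Removal of length and GC dependence moved it by over 1.5 times for Arhgap5 (-1.57), Cebpb (-1.86), Rps6ka3 (-2.23) and Scgb1a1 (9.66).

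**Figure D4:**
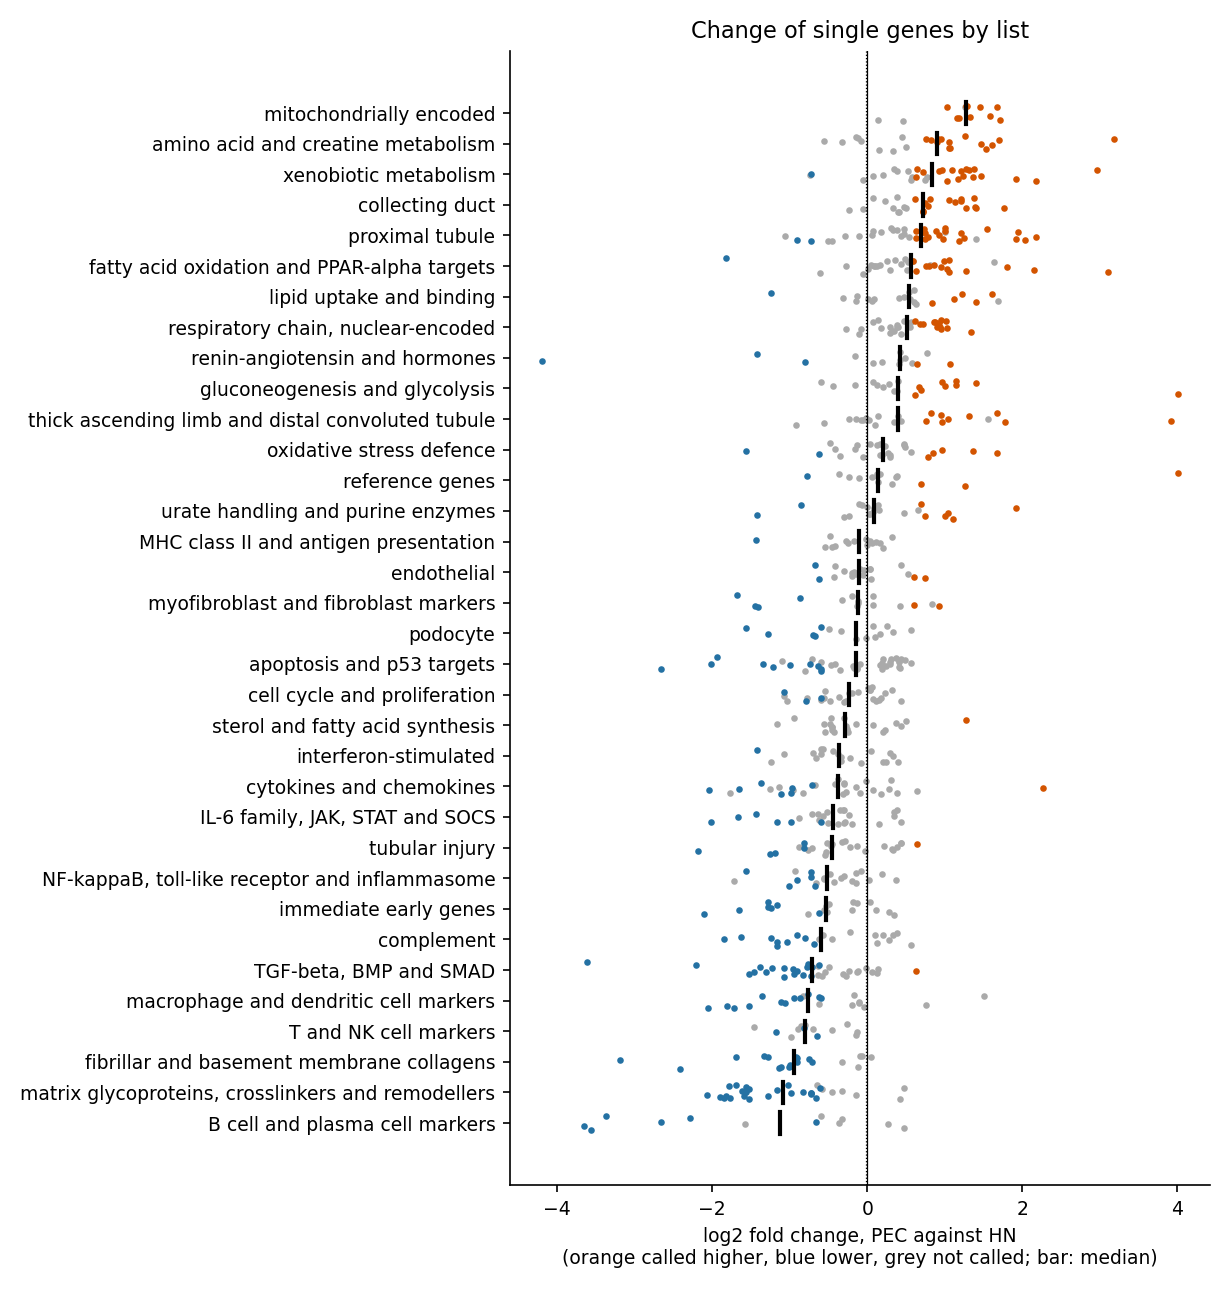
Each point is the log2 fold change of PEC against HN of 1 tested gene in a list, orange where called higher, blue where called lower and grey where not called, with the median of the list as a bar and values beyond 4.2 drawn at 4.2. Medians of the lists shown run from -1.12 for B cell and plasma cell markers to 1.28 for mitochondrially encoded genes, beside -0.01 over all tested genes. The lists of other tissues, of neutrophil markers and of genes the study measured are not shown.

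Among genes of tubular injury, 5 of 25 (20%) were called lower and 1 higher, near the 17.6% of all tested genes called lower (median -0.46). The repair-associated transcription factor Sox4 stood at 41.5, 37.7 and 39.6 in HN and 8.5, 9.6 and 7.94 in PEC (log2 fold change -2.19 ± 0.11 (SE, n = 3 and 3), adjusted p = 8.35e-06), and PEC lay close to Control at 7.83, 6.69 and 6.45. Sox9, another such factor, stood at 8.71, 5.5 and 6.78 in HN and 2.66, 3.25 and 2.83 in PEC (log2 fold change -1.26 ± 0.28 (SE, n = 3 and 3), adjusted p = 0.0059). Every PEC library was below every HN library for both, and Sox9 stayed above its Control levels of 0.256, 0.1 and 0.175. Gdf15, a stress-induced cytokine, fell as well (-1.19), and the keratin Krt7 rose (0.64). The most abundant injury transcripts did not pass the test. Osteopontin (Spp1), a matrix phosphoprotein of injured tubules, stood at 10919, 9488 and 9570.0 in HN and 8629, 8794 and 7133 in PEC against 513, 561 and 496 in Control (log2 fold change -0.29 ± 0.14 (SE, n = 3 and 3), adjusted p = 0.122). Clusterin (Clu), a secreted chaperone, stood at 661, 624 and 565 in HN and 855, 827 and 651 in PEC (log2 fold change 0.33 ± 0.16 (SE, n = 3 and 3), adjusted p = 0.107). The injury marker Havcr1 was at 264, 302 and 307 in HN and 201, 260.4 and 142 in PEC (log2 fold change -0.53 ± 0.25 (SE, n = 3 and 3), adjusted p = 0.107) and lipocalin 2 (Lcn2) at 169, 131 and 125 in HN and 111, 73.6 and 231 in PEC (log2 fold change -0.03 ± 0.44 (SE, n = 3 and 3), adjusted p = 0.96), both named after their values were seen. For Spp1 and Havcr1 all 3 PEC libraries were below all HN libraries by less than the test could call, and for Lcn2 and Clu the groups overlapped. Some of these calls rested on single libraries: Gdf15 (-1.27 to -1.03 without HN4, HN8, HN12 or PEC2) and Krt7 (0.56 to 0.65 without HN4, HN8 or PEC3). Called only without 1 library were Havcr1 (-0.76 without PEC2). Pairs for tubular injury: 0 and 4 without HN4 or HN8, 0 and 5 without PEC3, 2 and 5 after removal.

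Of the 20 fibrillar and basement membrane collagens, all tested, 15 were called lower (over all genes 17.6%, and 32.2% in the bin of the longest) and none higher, with a median log2 fold change of -0.95 (15 without PEC3, 14 after removal of length and GC dependence, 12 with both). Their summed level was 740.4, 750.4 and 674 in HN and 368, 420.2 and 339 in PEC and 211, 209 and 209.9 in Control. The fibrillar collagen Col1a1 (ENSMUSG00000001506, chr11:94936224-94953042, plus strand) stood at 72.6, 78.3 and 70.4 in HN and 41.9, 43.1 and 33.5 in PEC (log2 fold change -0.90 ± 0.11 (SE, n = 3 and 3), adjusted p = 3.19e-04) and at 3.88, 3.47 and 4.13 in Control. The groups did not overlap, and PEC stayed well above Control. The basement membrane chains Col4a1 and Col4a2, the most abundant of the list, were at 137, 132 and 102 in HN and 69.4, 85.8 and 65.8 in PEC (log2 fold change -0.75 ± 0.14 (SE, n = 3 and 3), adjusted p = 0.00253) and 97, 97.6 and 91.7 in HN and 45.2, 57.4 and 48.8 in PEC (log2 fold change -0.92 ± 0.10 (SE, n = 3 and 3), adjusted p = 1.48e-04). Col15a1, which links basement membranes to the interstitium, stood at 49.5, 50.4 and 45.7 in HN and 14.1, 18.5 and 12.5 in PEC (log2 fold change -1.69 ± 0.17 (SE, n = 3 and 3), adjusted p = 1.34e-04). All 3 were lower in each PEC library than in any HN library.

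Promoter windows of the called collagens were searched. The RefSeq windows (GRCm38.p6) hold 250 bases before and 50 after the start, and 11 of the 15 called collagens are in the table. The letters CAGACA, or TGTCTG on the other strand, to which SMAD proteins can bind, were found in 4 of these 11, in 15.9% of the 10902 tested genes with a window, in 14.3% of the 1932 called lower and in 18.4% of the 1454 called higher. They were also in 5 of 20 proximal tubule genes called higher and in 1 of 13 genes called lower in the TGF-beta, BMP and SMAD list. Among genes called lower they were in 3 of 10 matrix glycoproteins, crosslinkers and remodellers. They were in 0 of 6 in the IL-6 family, JAK, STAT and SOCS list and in 0 of 6 immediate early genes. The STAT letters TTCNNNGAA and the AP-1 letters TGANTCA were in none of the 11, against 6.99% and 4.99% of the tested genes with a window. A match is a description of the letters and not a binding site. The windows are those of Col1a2 (chr6:4505368-4505667 on the plus strand), Col3a1 (chr1:45311288-45311587 on the plus strand), Col5a1 (chr2:27886175-27886474 on the plus strand) and Col8a1 (chr16:57754688-57754987 on the minus strand), shown 5′ to 3′ with the matching letters in capitals; the first 3 genes are named because of these matches, after their values were seen.
Col1a2: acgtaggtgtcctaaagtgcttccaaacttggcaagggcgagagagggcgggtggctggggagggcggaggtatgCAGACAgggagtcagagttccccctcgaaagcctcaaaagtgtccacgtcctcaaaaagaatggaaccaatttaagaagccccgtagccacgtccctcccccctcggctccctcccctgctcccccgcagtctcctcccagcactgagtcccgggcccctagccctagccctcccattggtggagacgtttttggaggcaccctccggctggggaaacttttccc
Col3a1: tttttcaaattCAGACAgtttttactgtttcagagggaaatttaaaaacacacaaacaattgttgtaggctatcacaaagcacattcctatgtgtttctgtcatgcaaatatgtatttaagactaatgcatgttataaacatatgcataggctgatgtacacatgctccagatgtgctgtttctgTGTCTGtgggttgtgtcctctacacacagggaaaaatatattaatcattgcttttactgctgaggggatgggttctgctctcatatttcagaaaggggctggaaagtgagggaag
Col5a1: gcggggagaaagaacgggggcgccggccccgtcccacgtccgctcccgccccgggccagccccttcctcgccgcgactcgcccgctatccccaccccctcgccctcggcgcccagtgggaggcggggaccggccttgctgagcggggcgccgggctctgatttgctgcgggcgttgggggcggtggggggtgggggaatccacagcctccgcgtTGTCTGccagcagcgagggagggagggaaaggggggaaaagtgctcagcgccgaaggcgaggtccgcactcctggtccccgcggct
Col8a1: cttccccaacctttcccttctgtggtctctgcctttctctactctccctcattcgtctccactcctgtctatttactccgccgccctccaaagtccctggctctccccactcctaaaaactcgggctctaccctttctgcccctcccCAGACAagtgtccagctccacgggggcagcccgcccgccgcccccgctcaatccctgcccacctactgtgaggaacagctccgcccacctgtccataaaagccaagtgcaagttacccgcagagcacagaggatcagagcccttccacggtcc
The match in Col1a2 begins at -175 bases from the start, those in Col3a1 at -239 and -65, that in Col5a1 at -36 and that in Col8a1 at -103. These 4 genes, 3 fibrillar chains and a short-chain collagen, fell by log2 fold changes of -1.11, -1.28, -1.14 and -2.41. Levels of Col3a1 were 92.6, 98 and 88.5 in HN and 38.5, 43 and 33.5 in PEC, and those of Col1a2 were 50.7, 52.6 and 47.6 in HN and 22.1, 25.6 and 22 in PEC. No PEC library reached an HN library in any of the 4.

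Of 30 matrix glycoproteins, crosslinkers and remodellers, 23 were called lower (over all genes 17.6%) and none higher (median -1.09). Fibronectin, Fn1 (ENSMUSG00000026193, chr1:71585520-71653175, minus strand), stood at 39.97, 36.9 and 38.7 in HN and 11.7, 16 and 12.4 in PEC (log2 fold change -1.53 ± 0.16 (SE, n = 3 and 3), adjusted p = 1.41e-04) and at 1.96, 2.13 and 2.82 in Control. Ccn2, the matricellular protein also called connective tissue growth factor, stood at 178, 88.1 and 65.7 in HN and 21.3, 23.2 and 34.8 in PEC (log2 fold change -2.07 ± 0.36 (SE, n = 3 and 3), adjusted p = 0.00187). HN4 was the highest, and PEC lay within or below the Control levels of 27.3, 36.8 and 36.7. The gelatinase Mmp2 (-1.85) and the elastic fibre protein Fbln2 (-1.90) fell in each PEC library. Sparc, a collagen-binding glycoprotein, and Timp3, a protease inhibitor, the most abundant of the list, were not called, at 194, 184 and 179 in HN and 148, 160.4 and 138 in PEC and 122, 137 and 114 in HN and 171, 180.4 and 147 in PEC. Of the 15 myofibroblast and fibroblast markers tested (of 16), 4 were called lower and 2 higher (17.6% and 16.7% over all tested genes; median -0.12). Pdgfra, the growth factor receptor of interstitial fibroblasts, stood at 17.2, 15.6 and 13.1 in HN and 5.24, 5.73 and 5.82 in PEC (log2 fold change -1.45 ± 0.13 (SE, n = 3 and 3), adjusted p = 7.32e-05), near its Control levels of 6.03, 6.57 and 4.99. The adhesion molecule Cdh11 (-1.68) and the surface glycoprotein Thy1 (-1.41) fell as well. The contractile gene Acta2 stood at 60.5, 50.3 and 51.5 in HN and 54.6, 62.6 and 53.7 in PEC (log2 fold change 0.07 ± 0.10 (SE, n = 3 and 3), adjusted p = 0.566), and Tagln, an actin-binding protein, at 86.4, 74.7 and 63.2 in HN and 54.4, 71.3 and 52.7 in PEC (log2 fold change -0.33 ± 0.14 (SE, n = 3 and 3), adjusted p = 0.0856). Neither passed the test with TMM factors, and the groups overlapped; the sign of Acta2 was negative with total counts and with limma. S100a4 (0.93) and Tpm2 (0.60) rose, and S100a4 shares 56.3% of its words with other genes. With single libraries left out, no call was made for Tpm2 (0.52 to 0.55 without HN8 or PEC3). Once length and GC dependence were removed, S100a4 (0.41) and Tpm2 (0.37) were not called. Newly called after removal of length and GC dependence: Tagln (-0.64, lower) and Timp3 (0.71, higher). Pairs for matrix glycoproteins, crosslinkers and remodellers: 1 and 22 without HN12 and 1 and 19 after removal. Pairs for myofibroblast and fibroblast markers: 1 and 3 without HN8, 1 and 4 without PEC3 and 0 and 5 after removal.

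In the TGF-beta, BMP and SMAD list, 18 of 33 tested genes (of 34) were called lower (over all genes 17.6%) and 1 higher (median -0.71). Among the ligands, Tgfb1 stood at 15.3, 15.5 and 14.5 in HN and 7.79, 8.95 and 9.57 in PEC (log2 fold change -0.78 ± 0.16 (SE, n = 3 and 3), adjusted p = 0.00395), and Control at 4.26, 4.45 and 2.85. The activin subunit Inhba stood at 5.18, 3.7 and 3.26 in HN and 0.216, 0.334 and 0.437 in PEC (log2 fold change -3.62 ± 0.40 (SE, n = 3 and 3), adjusted p = 1.88e-04), and the related Inhbb fell too (-1.52). In all 3 genes every PEC library was below every HN library and above every Control library. The BMP antagonist Grem1 stood at 4.17, 2.71 and 1.86 in HN and 0.478, 0.614 and 0.8 in PEC (log2 fold change -2.21 ± 0.40 (SE, n = 3 and 3), adjusted p = 0.00222). Bmp7, a ligand made by tubules, was the only member called higher, at 5.85, 4.73 and 6.71 in HN and 8.11, 9.33 and 9.29 in PEC (log2 fold change 0.63 ± 0.14 (SE, n = 3 and 3), adjusted p = 0.00674). Of the signal carriers, Smad3 was not called, at 17.5, 15.3 and 15.8 in HN and 14, 16.3 and 14.5 in PEC (log2 fold change -0.12 ± 0.10 (SE, n = 3 and 3), adjusted p = 0.337), with overlapping groups. The targets Id2 and Id3, the most abundant of the list, were not called either, at 71.4, 78.6 and 80.04 in HN and 123, 44.6 and 85.9 in PEC and 60.2, 52 and 53.4 in HN and 47.5, 29.6 and 30.2 in PEC. The call ended without 1 library for Bmp7 (0.50 without HN8). With length and GC dependence taken out, Bmp7 (0.50) was not called. Left-out libraries brought a call for Id3 (-0.63 without Control5 and -0.88 without PEC1). Removal of length and GC dependence brought a call for Id3 (-0.98, lower). Pairs for TGF-beta, BMP and SMAD: 0 and 18 without HN8 and 0 and 15 after removal.

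In the list of the IL-6 family, JAK, STAT and SOCS genes, 6 of 26 tested (of 28) were called lower, against 17.6% of all tested genes, and none higher (median -0.44). The kinase Jak2 (ENSMUSG00000024789, chr19:29251828-29313080, plus strand) stood at 16.2, 15.2 and 12.8 in HN and 3.42, 6.51 and 3.93 in PEC (log2 fold change -1.67 ± 0.23 (SE, n = 3 and 3), adjusted p = 4.98e-04), below its Control levels of 11.1, 12.1 and 9.95 as well. Its relative Jak1, the most abundant of the list, stood at 34.4, 32.6 and 30.2 in HN and 20.7, 22.9 and 20.5 in PEC (log2 fold change -0.60 ± 0.08 (SE, n = 3 and 3), adjusted p = 4.10e-04). PEC was below HN in every library for both kinases. Socs1, a feedback inhibitor of JAK kinases, stood at 1.16, 1.68 and 1.48 in HN and 0.242, 0.146 and 0.689 in PEC (log2 fold change -2.01 ± 0.50 (SE, n = 3 and 3), adjusted p = 0.0103), and Socs3, another, at 40.3, 32.1 and 28.4 in HN and 20.3, 17.4 and 17 in PEC (log2 fold change -0.88 ± 0.33 (SE, n = 3 and 3), adjusted p = 0.0551). Socs1 was lower in each PEC library and passed the test; Socs3 was lower in each and did not. Stat3, the main carrier of IL-6 signals, was at 25.1, 19.7 and 20.6 in HN and 14.2, 15.8 and 15.6 in PEC (log2 fold change -0.52 ± 0.20 (SE, n = 3 and 3), adjusted p = 0.0592), not called although no PEC library reached HN. The call of Stat3 depended on the processing. It was called lower with total counts (-0.74), limma on log2(FPKM + 1) (-0.71) and GC dependence alone removed (-0.72). With length and GC dependence removed it was not called (-0.35). The ligand Il11 fell (-1.43), and Il6 itself did not reach the level tested, at 0.538, 0.281 and 0.324 in HN and 0.0806, 0.025 and 0.263 in PEC. Single libraries decided the call of Il11 (-1.38 to -1.22 without HN4, HN8, PEC1 or PEC2) and Jak1 (-0.57 to -0.55 without HN4, PEC1 or PEC3). A shift of the fold by over 1.5 times without 1 library was seen for Socs1 (-2.86 without PEC3). In the fit with length and GC dependence removed, Jak1 (-0.38) was not called. Without 1 library a call appeared for Socs3 (-0.88 without Control4 and -0.88 without Control5). Newly called after removal of length and GC dependence: Socs3 (lower).

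Of 29 tested cytokines and chemokines (of 30), 7 were called lower (over all genes 17.6%) and 1 higher (median -0.38). Cxcl14, a chemokine of epithelia, stood at 59.8, 76.8 and 56.8 in HN and 37.2, 34.2 and 27.4 in PEC (log2 fold change -0.97 ± 0.20 (SE, n = 3 and 3), adjusted p = 0.00375). Cx3cl1, the membrane-bound chemokine that binds macrophages and T cells, was the member that rose, at 8.95, 8.77 and 10.1 in HN and 46.4, 49.5 and 37.9 in PEC (log2 fold change 2.27 ± 0.51 (SE, n = 3 and 3), adjusted p = 0.00651). No PEC library overlapped HN in either gene, and Cx3cl1 in Control ranged widely, at 4.72, 27.1 and 22.6. Ccl28 (-2.04), Ccl4 (-1.37) and the neutrophil attractant Cxcl5 (-1.66) fell, and Cxcl16 was not called (-0.15). Of 22 genes of NF-kappaB, toll-like receptor and inflammasome signalling, 6 were called lower (over all genes 17.6%) and none higher (median -0.52). The subunit Nfkb1 stood at 9.46, 7.39 and 7.58 in HN and 4.19, 4.57 and 4.37 in PEC (log2 fold change -0.90 ± 0.12 (SE, n = 3 and 3), adjusted p = 5.51e-04), and its inhibitor Nfkbia at 49.4, 34 and 34.3 in HN and 22, 25 and 26.8 in PEC (log2 fold change -0.67 ± 0.18 (SE, n = 3 and 3), adjusted p = 0.0145). Both stayed above Control, at 3.11, 3.01 and 2.44 for Nfkb1. The nucleic acid sensors Tlr7 (-1.57) and Tlr3 (-1.01) fell, and the receptor Tnfrsf1a was not called (-0.15). Of 20 complement genes, 9 were called lower (over all genes 17.6%) and none higher (median -0.59); without PEC3 there were 12. The classical pathway chain C1qc stood at 84.8, 99.7 and 78.7 in HN and 30.2, 35.1 and 46.2 in PEC (log2 fold change -1.24 ± 0.19 (SE, n = 3 and 3), adjusted p = 9.03e-04), and the receptor C5ar1 fell (-1.63). The central component C3 was not called, at 233, 204 and 194 in HN and 218, 215 and 245 in PEC (log2 fold change 0.10 ± 0.21 (SE, n = 3 and 3), adjusted p = 0.708), and its sign was negative with total counts and with limma. Dropping 1 library ended the call of C5ar1 (-1.74 to -1.42 without Control2, Control4, Control5, HN4, HN8 or HN12), Ccl4 (-1.28 to -1.09 without HN8, PEC1 or PEC2), Cxcl5 (-1.47 to -1.40 without HN4, PEC1 or PEC2), Nfkbia (-0.60 to -0.47 without HN4 or PEC1), Tlr3 (-1.09 to -0.80 without HN4, HN8, HN12, PEC2 or PEC3) and Tlr7 (-1.65 to -1.09 without HN4, HN8, PEC1, PEC2 or PEC3). For Cxcl5 (-2.27 without PEC3) 1 library moved the fold by over 1.5 times. Removal of length and GC dependence ended calls, and Nfkb1 (-0.38), Tlr3 (-0.54) and Tlr7 (-1.21) were not called. Pairs for cytokines and chemokines: 1 and 4 without HN4 or HN8, 1 and 3 without PEC1 or PEC2, 1 and 11 without PEC3, 2 and 10 after removal. Pairs for NF-kappaB, toll-like receptor and inflammasome: 0 and 2 without HN4 and 1 and 4 after removal. Pairs for complement: 1 and 8 without PEC1.

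Interferon-stimulated genes depended on PEC3. Of 20, 1 was called lower with all libraries (over all genes 17.6%) and 16 without PEC3, while the median moved from -0.36 to -1.76. Their summed level was 355, 953 and 426 in HN and 156, 163 and 1125 in PEC, and 116, 154 and 134 in Control. HN8 and PEC3 were the highest. Isg15, a ubiquitin-like protein named after its values were seen, stood at 25.6, 131 and 35 in HN and 5.4, 6.81 and 114 in PEC (log2 fold change -0.60). The tetherin gene Bst2 stood at 86.3, 221 and 92.6 in HN and 23.9, 26.6 and 266 in PEC (-0.34), and Ifi27 at 69.7, 142 and 92.7 in HN and 34.5, 28.5 and 178 in PEC (-0.34). The gene called with all libraries was the guanylate-binding protein Gbp7, at 6.61, 12.4 and 8.29 in HN and 1.86, 2.61 and 5.78 in PEC (-1.42). Of the genes of MHC class II and antigen presentation 1 of 16 was called lower with all libraries (over all genes 17.6%) and 8 without PEC3 (medians -0.10 and -0.64). B2m, the light chain of MHC class I, stood at 1022, 1456 and 975 in HN and 516, 599 and 2490.4 in PEC (0.06), and Cd74, the class II invariant chain, at 710.2, 775 and 650.3 in HN and 389.7, 537 and 833 in PEC (-0.28). Tapbp, which loads peptides on class I molecules, was called with and without it, at 26.4, 53 and 40.00 in HN and 10.4, 11.3 and 22.3 in PEC (log2 fold change -1.44 ± 0.33 (SE, n = 3 and 3), adjusted p = 0.00708). A call was absent in some fits without 1 library for Gbp7 (-1.25 to -1.13 without HN8 or PEC2). The fold moved by over 1.5 times without 1 library for Gbp7 (-2.01 without PEC3). After removal of length and GC dependence Gbp7 (-0.99) was not called. A call appeared only with 1 library left out for B2m (-1.03 without PEC3), Bst2 (-2.38 without PEC3), Cd74 (-0.60 without PEC3), Ifi27 (-1.67 without PEC3) and Isg15 (-3.37 without PEC3). Pairs for interferon-stimulated: 0 and 0 without HN8 or PEC2 or after removal, 0 and 16 without PEC3. Pairs for MHC class II and antigen presentation: 0 and 2 without PEC2 and 0 and 8 without PEC3.

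Of 21 tested macrophage and dendritic cell markers (of 22), 12 were called lower (over all genes 17.6%) and none higher (median -0.76). The list summed to 779, 733 and 675 in HN and 345, 359 and 412 in PEC and to 50.9, 55.1 and 50.7 in Control, with Lyz2 its most abundant gene. The macrophage marker Adgre1 (ENSMUSG00000004730, chr17:57358691-57483527, plus strand) stood at 24.5, 24.1 and 21 in HN and 3.72, 5.76 and 7.39 in PEC (log2 fold change -2.05 ± 0.23 (SE, n = 3 and 3), adjusted p = 2.08e-04). Lysozyme (Lyz2) stood at 565, 515 and 485 in HN and 237, 234 and 278 in PEC (log2 fold change -1.06 ± 0.09 (SE, n = 3 and 3), adjusted p = 6.91e-05), and the mannose receptor Mrc1 at 14.2, 10.6 and 10.9 in HN and 3.45, 3.6 and 3.16 in PEC (log2 fold change -1.81 ± 0.13 (SE, n = 3 and 3), adjusted p = 3.74e-05). In all 3 the PEC libraries lay between Control and HN, with Lyz2 at 20.2, 19.4 and 18.7 in Control. The scavenger receptor Msr1 (-1.72) and the endotoxin co-receptor Cd14 (-0.76) fell as well. The mean was lower in PEC for 19 of the 21 tested and higher for 2. Counts of the dendritic cell gene Cd209a were 210, 243 and 304 in HN and 904, 672 and 105 in PEC. Those of Clec9a, another, were 292, 176 and 359 in HN and 344, 290 and 399 in PEC. Both were named after their values were seen. Of 13 tested T and NK cell markers (of 18), 3 were called lower (over all genes 17.6%; median -0.80, summed level 26.4, 46.9 and 30.1 in HN and 18.4, 23.2 and 27.5 in PEC, most abundant Trbc2): Cd3d (-0.81), Cd4 (-0.65) and Il7r (-1.18). The receptor constant genes Trac and Trbc2 were not called (-0.13 and -0.46). Of 12 tested B cell and plasma cell markers (of 18), 6 were called lower (over all genes 17.6%; median -1.12, summed level 377, 491 and 417 in HN and 95, 141 and 77.8 in PEC). The kappa light chain constant gene Igkc stood at 216, 294 and 244 in HN and 43.6, 75.9 and 34.2 in PEC (log2 fold change -2.29 ± 0.46 (SE, n = 3 and 3), adjusted p = 0.00347) and the IgA heavy chain gene Igha at 72.6, 87.3 and 80.1 in HN and 7.03, 11.9 and 4.35 in PEC (log2 fold change -3.37 ± 0.51 (SE, n = 3 and 3), adjusted p = 8.34e-04). For Igkc, PEC1 and PEC3 lay within the Control range (15.9, 43.5 and 57.3) and PEC2 above it, and for Igha PEC overlapped Control (4.77, 12.8 and 17.9). Ighg2c fell too (-3.66). The other 6 tested markers of this list were not called, and the mean was higher in PEC for 2 of the 12. Counts of the IgM heavy chain gene Ighm, named after its values were seen, were 1088, 2436 and 1973 in HN. In PEC they were 1793, 1599 and 1450. Neutrophil markers gave 1 call, Mmp9 (-1.37, lower), among 6 tested of 13, a share near the 17.6% called lower over all genes (median -0.73). Their summed level was 35, 19.3 and 21.9 in HN and 10.4, 12.7 and 34.1 in PEC, with Ngp at 0 counts. S100a8 and S100a9 were not called (-0.72 and -0.10). Fits without 1 library gave no call for Cd14 (-0.75 to -0.63 without HN4, HN8, PEC1 or PEC2), Cd3d (-0.79 to -0.64 without HN8, PEC1 or PEC3), Cd4 (-0.69 to -0.49 without HN8, HN12, PEC1 or PEC2), Il7r (-1.32 to -1.01 without HN4, HN8, HN12, PEC1 or PEC2), Mmp9 (-1.31 to -1.20 without HN4 or HN12) and Msr1 (-1.66 to -1.41 without HN4, PEC1 or PEC2). Leaving out 1 library moved the fold by over 1.5 times for Ighg2c (-4.55 without PEC2) and Msr1 (-2.31 without PEC3). Once length and GC dependence were removed, Il7r (-0.76) and Msr1 (-1.11) were not called. Removal of length and GC dependence brought a call for Trbc2 (lower). Pairs for macrophage and dendritic cell markers: 0 and 7 without HN4, 0 and 5 without PEC1 and 1 and 11 without PEC3. Pairs for T and NK cell markers: 0 and 5 without Control2, 0 and 0 without HN8 or PEC1, 0 and 1 without HN12 or PEC2. Pairs for neutrophil markers: 0 and 0 without HN4 or HN12, 0 and 2 without PEC3.

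Of 38 genes of apoptosis and p53 targets, 10 were called lower (over all genes 17.6%) and none higher (median -0.15). Apaf1, the scaffold of the apoptosome, stood at 1.88, 2.51 and 2.28 in HN and 0.296, 0.455 and 0.304 in PEC (log2 fold change -2.66 ± 0.21 (SE, n = 3 and 3), adjusted p = 4.43e-05), and Bbc3, a BH3-only killer protein, at 6.05, 5.72 and 4.4 in HN and 1.47, 1.53 and 0.999 in PEC (log2 fold change -2.01 ± 0.26 (SE, n = 3 and 3), adjusted p = 3.74e-04). No PEC library reached HN in either. Eda2r, a p53-induced receptor, fell (-1.94). The abundant members, cytochrome c (Cycs) and the survival protein Mcl1, were not called (0.44 and -0.47). Of 27 tested cell cycle genes (of 28), 3 were called lower, a share under the 17.6% of all tested genes (median -0.23), the helicase subunits Mcm4 (-0.79) and Mcm5 (-0.60) and the spindle motor Kif11 (-1.08), while Ccnd1 and Pcna were not called (0.11 and -0.56). Immediate early genes, which respond to stress within minutes, gave 7 lower of 19 tested (of 20, over all genes 17.6%), none higher (median -0.53). The AP-1 member Junb stood at 66.5, 56.6 and 54.2 in HN and 23.6, 25.4 and 23.8 in PEC (log2 fold change -1.28 ± 0.09 (SE, n = 3 and 3), adjusted p = 3.18e-05), and Jund at 157, 153 and 138 in HN and 64.5, 57.1 and 63.2 in PEC (log2 fold change -1.28 ± 0.12 (SE, n = 3 and 3), adjusted p = 9.26e-05). Junb remained above Control (11.2, 10.3 and 10.5), and Jund lay below it (125, 109 and 90.3). The heat shock genes Hspa1a (-2.11) and Hspa1b (-1.66), which share over 60% of their words with other genes and are uncertain as single genes, fell, with HN4 far above HN8 and HN12 at 60.1, 12.2 and 14.8 for Hspa1a. Ier3 was not called (-0.49). No call remained for Hspa1b (-1.62 to -1.55 without PEC1 or PEC2), Kif11 (-1.12 to -0.90 without Control2, HN4, HN8, HN12, PEC1 or PEC3) and Mcm5 (-0.56 to -0.55 without HN12, PEC1 or PEC3) with 1 library left out. A shift of the fold by over 1.5 times without 1 library was seen for Hspa1a (-1.01 without HN4) and Hspa1b (-0.63 without HN4). With length and GC dependence taken out, Kif11 (-0.59) was not called. Called only without 1 library were Ier3 (-0.82 without PEC3) and Pcna (-0.66 without HN8). Newly called after removal of length and GC dependence: Cycs (0.75, higher) and Ier3 (-0.96, lower). Pairs for apoptosis and p53 targets: 1 and 9 without HN8 and 1 and 6 after removal. Pairs for cell cycle and proliferation: 0 and 6 without Control5, 0 and 1 without HN12 or PEC1. Pairs for immediate early genes: 0 and 11 after removal.

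Of 40 proximal tubule genes, 21 were called higher and 2 lower (over all genes 16.7% and 17.6%) (median 0.70), 26 and 0 without PEC3 and after removal of length and GC dependence together. Kap, an androgen-regulated protein and the most abundant transcript of the list, stood at 2675, 4842 and 3673 in HN and 13601, 19467 and 12739.6 in PEC (log2 fold change 2.03 ± 0.31 (SE, n = 3 and 3), adjusted p = 8.29e-04) and at 32749, 31414 and 52576 in Control. The inositol oxygenase Miox stood at 203, 177 and 213 in HN and 903, 871 and 522 in PEC (log2 fold change 1.95 ± 0.20 (SE, n = 3 and 3), adjusted p = 1.37e-04), and the cytochrome Cyp2e1 at 89.7, 97.1 and 111 in HN and 337, 667 and 348 in PEC (log2 fold change 2.18 ± 0.26 (SE, n = 3 and 3), adjusted p = 2.59e-04). All PEC libraries exceeded all HN libraries, and Kap stayed under its Control range. The peptidase Mme (-0.90) and the bicarbonate carrier Slc4a4 (-0.73) fell. Of 23 tested genes of the thick ascending limb and distal convoluted tubule (of 24), 9 were called higher (over all genes 16.7%) and none lower (median 0.40). The growth factor Egf stood at 15.1, 11.5 and 11.5 in HN and 36.8, 48.8 and 45.3 in PEC (log2 fold change 1.78 ± 0.17 (SE, n = 3 and 3), adjusted p = 9.64e-05), far below 143, 123 and 169 in Control. The distal tubule protein Pvalb stood at 0.369, 0.238 and 0.426 in HN and 1.19, 6 and 8.54 in PEC (log2 fold change 3.92 ± 0.67 (SE, n = 3 and 3), adjusted p = 0.00164), with PEC1 well below PEC2 and PEC3. Uromodulin (Umod), which marks the thick limb, was at 1327, 1165 and 1255 in HN and 1277, 1336 and 1197 in PEC (log2 fold change 0.02 ± 0.10 (SE, n = 3 and 3), adjusted p = 0.858) and at 1118, 1228 and 1193 in Control, so that no difference was detected in any direction. The kallikrein Klk1 rose (1.67). Of 25 collecting duct genes, 15 were called higher (over all genes 16.7%) and none lower (median 0.72), and 10 after removal of length and GC dependence. The intercalated cell bicarbonate carrier Slc4a9 stood at 5.07, 5.32 and 5.17 in HN and 16.5, 18.7 and 17.8 in PEC (log2 fold change 1.77 ± 0.14 (SE, n = 3 and 3), adjusted p = 4.52e-05), with all PEC libraries above Control (10.8, 8.77 and 7.1). The sodium pump regulator Fxyd4 (1.41) and the anion exchanger Slc4a1 (1.39), which red cells also make, rose. The water channel Aqp2 and carbonic anhydrase Car2 were not called (0.50 and -0.23). All 40 proximal tubule genes reached the level tested. Some of these calls rested on single libraries: Slc4a4 (-0.56 without PEC3). In the fit with length and GC dependence removed, Mme (-0.08) and Slc4a4 (-0.30) were not called. Pairs for proximal tubule: 25 and 1 without PEC3 and 19 and 0 after removal. Pairs for thick ascending limb and distal convoluted tubule: 9 and 2 without PEC2.

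Of 15 podocyte genes, 5 were called lower (over all genes 17.6%) and none higher (median -0.15), among them Dach1 at 3.73, 4.36 and 4.06 in HN and 1.55, 1.21 and 1.35 in PEC (log2 fold change -1.57 ± 0.11 (SE, n = 3 and 3), adjusted p = 3.44e-05), Thsd7a (-1.28) and Plce1 (-0.70). The abundant Podxl and Npnt were not called (0.33 and 0.16). Of 20 endothelial genes, 2 were called higher and 2 lower, both under the shares over all tested genes (median -0.11). Esam (0.74) and Emcn (0.61), both of vessel walls, rose, and Erg (-0.62) and the lymphatic receptor Flt4 (-0.68) fell, while Plvap and Eng were not called (-0.18 and -0.04). Of 14 tested genes of the renin-angiotensin system and hormones (of 16), 2 were called higher and 3 lower, near the 16.7% and 17.6% over all tested genes (median 0.42). Renin (Ren1) stood at 35.7, 35.3 and 27.8 in HN and 97.4, 63.5 and 46.8 in PEC (log2 fold change 1.07 ± 0.27 (SE, n = 3 and 3), adjusted p = 0.0108) and angiotensinogen (Agt) at 38.9, 41.7 and 37.5 in HN and 68.6, 61.5 and 53.7 in PEC (log2 fold change 0.64 ± 0.16 (SE, n = 3 and 3), adjusted p = 0.0104). The calcium receptor Casr (-1.42) and the glucocorticoid receptor Nr3c1 (-0.80) fell, and Pth1r was not called (0.58). Erythropoietin (Epo) had no count in any PEC library and levels of 3.65, 0.0483 and 3.98 in HN and 3.77, 3.61 and 0 in Control. HN8 and Control5 were near or at 0, so that the value of at least 143-fold lower, against a floor of 3 counts over the PEC group, rests on HN4 and HN12. Epo was called lower with all libraries but not without Control2, Control4, HN4, HN12, PEC1, PEC2 or PEC3. With single libraries left out, no call was made for Agt (0.55 without PEC1), Emcn (0.40 to 0.58 without HN8, HN12 or PEC3), Erg (-0.58 to -0.52 without HN4, PEC1 or PEC2) and Flt4 (-0.52 without PEC1). Removal of length and GC dependence ended calls, and Agt (0.32), Esam (0.50), Flt4 (-0.56), Nr3c1 (-0.30), Plce1 (-0.22) and Ren1 (0.70) were not called. Left-out libraries brought a call for Pth1r (0.66 without HN12, 0.64 without PEC1 and 0.65 without PEC3). Pairs for podocyte: 1 and 4 without PEC3. Pairs for endothelial: 2 and 1 without HN4 or PEC2, 1 and 2 without HN12, 2 and 0 without PEC1, 1 and 3 without PEC3, 1 and 1 after removal. Pairs for renin-angiotensin and hormones: 4 and 2 without PEC3 and 1 and 2 after removal.

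Of 21 tested genes of urate handling and purine metabolism (of 22), 6 were called higher and 2 lower (over all genes 16.7% and 17.6%; median 0.09). The organic anion carrier Slc22a8 (ENSMUSG00000063796, chr19:8591254-8611834, plus strand) stood at 29.1, 26.2 and 24.7 in HN and 113, 99.9 and 90.6 in PEC (log2 fold change 1.92 ± 0.12 (SE, n = 3 and 3), adjusted p = 1.89e-05), within or above the Control range of 83, 99.1 and 81.8. The phosphate and urate carrier Slc17a1 stood at 89.6, 92.7 and 89.9 in HN and 197, 196 and 167 in PEC (log2 fold change 1.04 ± 0.10 (SE, n = 3 and 3), adjusted p = 9.00e-05), and the urate reabsorption carrier Slc22a12 at 113, 158 and 111 in HN and 212, 238 and 165 in PEC (log2 fold change 0.69 ± 0.19 (SE, n = 3 and 3), adjusted p = 0.0147). Each PEC library exceeded HN, and Slc22a12 remained far under Control (889.9, 674 and 805). Slc22a13 (1.11) and the scaffold Pdzk1 (0.75) rose. Of the purine enzymes, the guanine deaminase Gda (-1.42) and the nucleotidase Nt5e (-0.85) fell. The call ended without 1 library for Nt5e (-0.84 to -0.70 without HN8, HN12, PEC1 or PEC3) and Slc22a12 (0.57 to 0.61 without HN4, HN12 or PEC2). After removal of length and GC dependence Nt5e (-0.60) and Slc22a12 (0.47) were not called. Pairs for urate handling and purine enzymes: 6 and 1 without HN8, HN12 or PEC1, 7 and 1 without PEC3 or after removal.

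Of 34 genes of fatty acid oxidation and PPAR-alpha targets, 14 were called higher (over all genes 16.7%) and 1 lower (median 0.56). The receptor Ppara itself stood at 10.6, 6.5 and 5.48 in HN and 1.92, 2.71 and 1.76 in PEC (log2 fold change -1.82 ± 0.26 (SE, n = 3 and 3), adjusted p = 6.27e-04). Its direction was opposite to that of the list, and PEC lay further from Control (17.3, 20.4 and 20.6) than HN did. The hydroxylases Cyp4a10 (2.15) and Cyp4b1 (1.28) and the electron transfer subunit Etfb (1.80) rose, and Etfb shares 67.3% of its words. Of 20 genes of lipid uptake and binding, 5 were called higher (over all genes 16.7%) and 1 lower (median 0.54). The fatty acid binding protein Fabp3 stood at 33.8, 29 and 40.04 in HN and 89.8, 98.8 and 125 in PEC (log2 fold change 1.61 ± 0.18 (SE, n = 3 and 3), adjusted p = 1.70e-04), and Slc27a2, a fatty acid transporter of the proximal tubule, at 286, 283 and 298 in HN and 659, 783 and 581 in PEC (log2 fold change 1.22 ± 0.12 (SE, n = 3 and 3), adjusted p = 1.09e-04). No library overlapped between groups. Plin5, a lipid droplet protein, rose (1.41), and the endocytic receptor Lrp1 fell (-1.24). Sterol and fatty acid synthesis gave 1 call in 22 (over all genes 16.7% higher), Scd2, higher (1.28, list median -0.29). Me1 and Scd1 were not called (0.44 and -0.27). With the whole adipocyte list as a covariate, which holds Pck1 and other kidney genes, the signs of Plin5 (-0.76) and Scd2 (-0.86) were negative. Of 19 genes of gluconeogenesis and glycolysis, 9 were called higher (over all genes 16.7%) and none lower (median 0.40). Pck1 stood at 183, 144 and 100.4 in HN and 305, 534 and 288 in PEC (log2 fold change 1.40 ± 0.32 (SE, n = 3 and 3), adjusted p = 0.00698) and stayed under Control (1732, 1371 and 968). G6pc, which releases glucose (1.15), and Ldhb (0.62) rose. Single libraries decided the call of G6pc (0.93 to 0.95 without HN12 or PEC2), Ldhb (0.52 to 0.58 without HN8, PEC1 or PEC2), Plin5 (0.97 to 1.51 without HN4, HN8, HN12, PEC2 or PEC3) and Scd2 (0.92 to 1.28 without Control2, Control4, Control5, HN4, HN8, PEC2 or PEC3). Once length and GC dependence were removed, Ldhb (0.25) and Plin5 (1.22) were not called. Without 1 library a call appeared for Me1 (0.65 without PEC3). Pairs for lipid uptake and binding: 9 and 1 without PEC1. Pairs for sterol and fatty acid synthesis: 0 and 0 without Control2, Control4 or Control5, 0 and 1 without HN4 or HN8, 1 and 1 without PEC2 or after removal, 1 and 3 without PEC3. Pairs for gluconeogenesis and glycolysis: 9 and 1 without PEC3.

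Of 30 nuclear-encoded genes of the respiratory chain 13 were called higher (over all genes 16.7%) and none lower (median 0.51), and 1 of the 2 records named Atp5o held no count. The complex I subunit Ndufv2 stood at 51.4, 52.3 and 49.99 in HN and 97.9, 96.2 and 117 in PEC (log2 fold change 1.02 ± 0.09 (SE, n = 3 and 3), adjusted p = 6.71e-05), and Ndufb5 rose as well (1.03). The subunit Cox5b rose (1.34), while Cox8a and Atp5a1, the most abundant, were not called, at 489.9, 461 and 484 in HN and 401, 393 and 389.7 in PEC and 339.8, 309 and 326 in HN and 434, 489 and 393 in PEC. Of the 13 mitochondrially encoded genes, 10 were called higher (over all genes 16.7%) and none lower (median 1.28). The reductase subunit mt-Cytb stood at 6261, 5744 and 6080.2 in HN and 14311, 12059 and 14696 in PEC (log2 fold change 1.18 ± 0.16 (SE, n = 3 and 3), adjusted p = 4.32e-04), between HN and the Control levels of 21063, 21048 and 25608. The oxidase subunit mt-Co1 (1.16), the ATPase subunit mt-Atp8 (1.72), mt-Co3 (1.67) and mt-Nd6 (1.59) rose, and mt-Co1 and mt-Co3 share over 50% of their words with other genes. Amino acid and creatine metabolism gave 14 higher (over all genes 16.7%) and none lower of 23 tested (of 24, median 0.90). Fah, the last enzyme of tyrosine breakdown, stood at 40.5, 42.9 and 48.8 in HN and 142, 161 and 127 in PEC (log2 fold change 1.70 ± 0.11 (SE, n = 3 and 3), adjusted p = 1.99e-05), near the Control levels of 128, 132 and 133. The proline dehydrogenase relative Prodh2 (1.61) and Ass1 (1.53), which makes argininosuccinate, rose. For both, every PEC library exceeded HN. Of 30 genes of xenobiotic metabolism, 18 were called higher (over all genes 16.7%) and 1 lower (median 0.84). The reductases Akr1c18 and Akr1c21 stood at 0.657, 0.547 and 1.25 in HN and 6.72, 6.14 and 6.26 in PEC (log2 fold change 2.96 ± 0.31 (SE, n = 3 and 3), adjusted p = 1.41e-04) and 205, 224 and 233 in HN and 596, 599 and 504 in PEC (log2 fold change 1.36 ± 0.14 (SE, n = 3 and 3), adjusted p = 1.28e-04). No groups overlapped, and Control was higher still for Akr1c18 (24.1, 26.6 and 37.1). Cyp2d9 rose (1.92), and Ugt2b5 fell (-0.73), with overlapping groups. Of 26 tested genes of oxidative stress defence (of 28), 5 were called higher (over all genes 16.7%) and 2 lower (median 0.21). The superoxide dismutase Sod1 stood at 45.5, 46 and 42.4 in HN and 117, 114 and 114 in PEC (log2 fold change 1.36 ± 0.07 (SE, n = 3 and 3), adjusted p = 8.35e-06), and the ferritin heavy chain Fth1 at 472, 482 and 397 in HN and 1603, 1429 and 1265 in PEC (log2 fold change 1.67 ± 0.14 (SE, n = 3 and 3), adjusted p = 4.91e-05), above Control (816, 712 and 833). Catalase (Cat) rose (0.96), and the NADPH oxidase subunits Cybb (-1.56) and Ncf1 (-0.62), made by phagocytes, fell. The plasma glutathione peroxidase Gpx3 varied within groups, at 7902, 7559.7 and 2793 in HN and 3380.1, 14139 and 3241 in PEC (log2 fold change 0.19 ± 0.60 (SE, n = 3 and 3), adjusted p = 0.816), with HN12 low and PEC2 high, and Ftl1 was not called (-0.05). Dropping 1 library ended the call of Ncf1 (-0.62 to -0.44 without HN4, HN8 or PEC1) and Ugt2b5 (-0.83 to -0.54 without Control2, Control4, Control5, HN4, HN8, HN12, PEC1 or PEC3). With length and GC dependence taken out, Ugt2b5 (-0.53) was not called. Removal of length and GC dependence brought a call for Cox8a (-0.78, lower). Pairs for respiratory chain, nuclear-encoded: 10 and 1 after removal. Pairs for amino acid and creatine metabolism: 14 and 1 without PEC1 or PEC2. Pairs for xenobiotic metabolism: 18 and 0 without Control2, Control4, Control5, HN8, HN12 or PEC3, 20 and 0 without HN4 or after removal, 17 and 0 without PEC1. Pairs for oxidative stress defence: 5 and 1 without HN4 or PEC1, 6 and 1 without HN8.

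**Figure D5:**
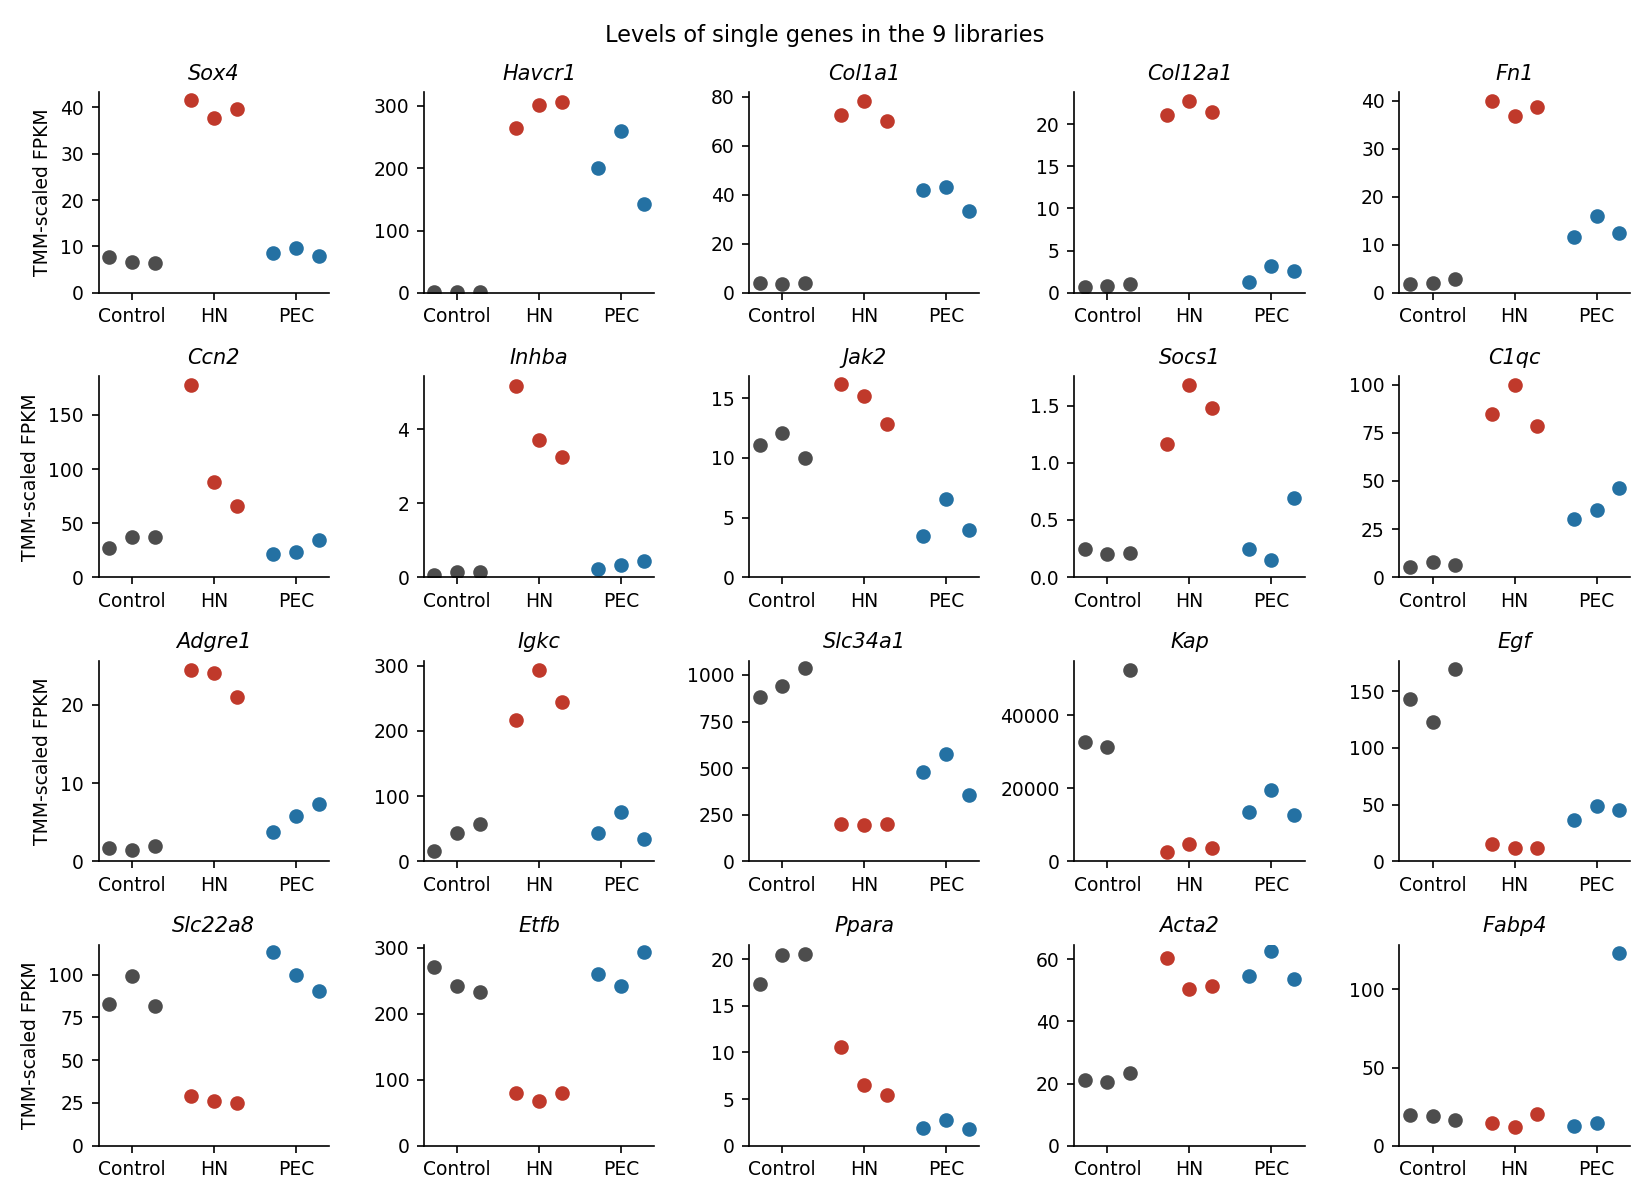
Each panel plots the level (TMM-scaled FPKM, axis from 0) of 1 gene in the 9 libraries, grey Control, red HN and blue PEC. Matrix, macrophage and antibody genes lie lower in PEC than in HN, tubule genes lie higher, Acta2 overlaps, and Fabp4 is high in PEC3 alone at 123.

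Genes measured by other methods in the same project formed a list of their own. Of these 14 genes 13 were tested, 6 were called lower (over all genes 17.6%) and none higher (median -0.60), 4 lower after removal of length and GC dependence. Fabp4, a fatty acid binding protein of adipocytes, macrophages and vessels, stood at 14.8, 11.7 and 20.03 in HN and 12.9, 14.7 and 123 in PEC and at 19.5, 18.7 and 16.5 in Control (log2 fold change 1.69 ± 0.78 (SE, n = 3 and 3), adjusted p = 0.101). PEC3, the library highest for the fat markers, was far above all others, PEC1 and PEC2 lay within the HN range, and the value without PEC3 was -0.15. Beside Fn1, Jak2, Col1a1 and Tgfb1, given above, the survival gene Bcl2 stood at 3.11, 3.05 and 3.12 in HN and 1.76, 1.89 and 1.91 in PEC (log2 fold change -0.74 ± 0.09 (SE, n = 3 and 3), adjusted p = 3.04e-04) and was lower in every PEC library. The pro-apoptotic Bax was at 27.3, 28.5 and 27.9 in HN and 27.5, 21.5 and 27.7 in PEC (log2 fold change -0.13 ± 0.11 (SE, n = 3 and 3), adjusted p = 0.357), the cytokine Tnf at 1.39, 2.04 and 1.53 in HN and 1.23, 1.21 and 1.59 in PEC (log2 fold change -0.30 ± 0.43 (SE, n = 3 and 3), adjusted p = 0.589) and the chemokine Ccl2 at 29.7, 21 and 13.5 in HN and 18.6, 9.45 and 12.2 in PEC (log2 fold change -0.67 ± 0.39 (SE, n = 3 and 3), adjusted p = 0.185). The groups overlapped in these 3. Of 15 reference genes, 3 were called higher (over all genes 16.7%) and 1 lower (median 0.14). Actb stood at 253, 250.3 and 233 in HN and 289, 281 and 346 in PEC (log2 fold change 0.32 ± 0.13 (SE, n = 3 and 3), adjusted p = 0.0677), Rplp0 was not called (-0.11), Ppia (0.70) rose, and Gusb fell (-0.78). Gapdh was the extreme, at 3.48, 3.71 and 3.61 in HN and 54.1, 56 and 63.6 in PEC (log2 fold change 4.01 ± 0.19 (SE, n = 3 and 3), adjusted p = 8.35e-06), while the sum over Gapdh and its copies was 2.32 times the HN mean in PEC. Of these, Actb kept its positive sign with each scaling, and B2m was negative with total counts (-0.15) and with limma (-0.54). A call was absent in some fits without 1 library for Ppia (0.44 to 0.76 without Control2, Control4, Control5, HN4, HN8, PEC1, PEC2 or PEC3). In the fit with length and GC dependence removed, Bcl2 (-0.38) and Ppia (0.63) were not called. A call appeared only with 1 library left out for Fabp4 (2.15 without PEC1 and 2.13 without PEC2). Pairs for genes measured in the study: 1 and 6 without PEC1 or PEC2. Pairs for reference genes: 2 and 2 without PEC3 and 4 and 2 after removal.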

How the data were processed

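Poly(A)-selected kidney RNA of 9 mice was sequenced by the authors. Whole-number counts per gene and FPKM (scaled to gene length and depth) are used as deposited by the authors in 1 table. The deposited FPKM served for the filters and for limma, and levels were computed from the counts and GENCODE M21 exon lengths. Aligner and counter are not given in the sources used here; per the labels Bowtie 0.12.2 and the builds mm8 and mm9 were listed without a role, while the coordinates are GRCm38. Groups follow the disease state and treatment labels; Control titles read HN mice. Genes whose FPKM averaged 0.5 or more over the 6 PEC and HN libraries were tested with edgeR 4.0.16 (R 4.3.3; TMM factors, quasi-likelihood test, 9 libraries in 1 fit, Benjamini-Hochberg adjustment) and called at a fold of at least 1.5 and an adjusted p of at most 0.05. Alternatives used limma 3.58.1, DESeq2 1.42.0, other scalings and filters, spline offsets for length and GC (GENCODE M21), covariates and left-out mice. Library measures were compared with an exact permutation test. Named were the 10 largest rises and falls among called genes with non-overlapping groups and FPKM averaging 5 or more that stayed called in each fit without 1 mouse and after removal of length and GC dependence (leaving out predicted genes, pseudogenes, receptor segments, small and ribosomal RNAs, AY036118 being counted as one by name, and mitochondrial genes), genes the study measured with Gapdh and Actb, and in each list the 3 largest called rises and falls and the 2 genes with the highest mean FPKM. Some genes under this rule are not reported here. Other genes are marked as chosen after their values were seen. Members and lists were chosen with earlier results of these data known.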

Additional observations from a re-analysis of the deposited data

How the results depend on the processing

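Genes called higher in PEC numbered 2647 and genes called lower 2802. Between fits without 1 mouse these counts ranged from 2332 to 2684 and from 2499 to 2855. Higher calls numbered 1761 with total counts alone, 1413 with limma on log2(FPKM + 1), 1762 with limma on log2(FPKM + 0.1), 1304 with the adipocyte sum as a covariate and 1492 at a fold of at least 2. Lower calls numbered 4358 with limma on log2(FPKM + 0.1), 1473 with the adipocyte sum, 1409 at a fold of at least 2 and 1640 among genes with few shared words with length and GC dependence removed and PEC3 left out. That last fit changed several choices at once. With few shared words alone, where fewer genes were tested, 2167 were lower. With length and GC dependence removed and PEC3 left out, on all tested genes, 2248 were lower. The cause of these moves was not tested. In fits without 1 mouse the difference of PEC from HN ranged from 5.46 to 7.13 for the percent of counts on mitochondrial genes, 0.298 to 1.01 for ribosomal RNA loci, 5.87 to 6.37 for the 10 most counted genes and -16.8 to 279 for the 6 adipocyte markers, the lowest being without PEC3 against 180.0 with all libraries.

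Of 226 named genes tested, 167 were called, 126 stayed called in each fit without 1 mouse and 81 had the same call under every alternative. Part of this was fixed by the naming rule. The largest changes were named only if they stayed called in each fit without 1 mouse and after removal of length and GC dependence. In each list the largest called changes were named as well. Over all tested genes, 4032 of 5449 calls were made in every fit without 1 mouse. The counts for named genes in this paragraph are therefore no estimate of how robust the calls are. With DESeq2 221 genes kept direction and side of the threshold, with median-of-ratios factors all 226, with length and GC dependence removed 184 (28 were no longer called and 8 were newly called) and with the adipocyte sum 142. Of 42 list medians, 27 moved by more than the spread between replicates with total counts, 14 with length and GC dependence removed and 8 without PEC3. The sign differed in at least 1 alternative for 31 named genes, 4 of them called.

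With GC dependence removed the log2 fold changes of other sign were Bax 0.04, Acta2 -0.04, C3 -0.11, S100a9 0.06, Ccnd1 -0.05, Umod -0.15, Gpx3 -0.01 and Fdx1 0.12. Other signs appeared with both length and GC dependence removed for Bax 0.01, Acta2 -0.14, B2m -0.00, Umod -0.18, Gpx3 -0.13 and Fdx1 0.02. For the adipocyte sum as a covariate such values were Actb -0.09, Fabp4 -1.84, C3 -0.52, B2m -2.07, Ccnd1 -0.25, Aqp2 -0.58, Plin5 -0.76, Scd2 -0.86, Gpx3 -0.53, Lipe -0.29, Plin4 -1.47, Fdx1 0.00, Tnni2 -0.22, Adipoq -22.72, Ucp1 -15.94 and Cfd -27.48. With length dependence removed the log2 fold changes of other sign were Smad3 0.04, Acta2 -0.07, B2m -0.32, Umod -0.05 and Eng 0.00. Other signs appeared with total counts alone for Acta2 -0.14, Id2 -0.07, C3 -0.11, B2m -0.15, Ccnd1 -0.11, Umod -0.19, Npnt -0.05 and Gpx3 -0.04. For limma on log2(FPKM + 1) such values were Acta2 -0.16, Id2 -0.21, C3 -0.13, B2m -0.54, Ccnd1 -0.14, Umod -0.21, Npnt -0.04 and Gpx3 -0.27. With limma on log2(FPKM + 0.1) the log2 fold changes of other sign were Acta2 -0.16, Id2 -0.21, C3 -0.13, B2m -0.54, Ccnd1 -0.14, Umod -0.21, Npnt -0.05 and Gpx3 -0.27. Other signs appeared with length and GC dependence removed and PEC3 left out for Acta2 -0.09, C3 -0.01, B2m -1.09, Ccnd1 -0.10, Umod -0.13, Fdx1 0.06, Adipoq -6.41, Ucp1 -5.14 and Cfd -5.87. For the same on genes with few shared words such values were Acta2 -0.03, B2m -1.03, Ccnd1 -0.04, Umod -0.07, Fdx1 0.12, Adipoq -6.34, Ucp1 -5.07 and Cfd -5.83. With the 6 adipocyte markers as a covariate the log2 fold changes of other sign were B2m -0.47, Adipoq -0.85 and Cfd -0.77. Other signs appeared with no filter on FPKM for Umod -0.02. For upper-quartile factors such values were Eng 0.04, Ftl1 0.04 and Lcn2 0.06. With only genes with few shared words the log2 fold changes of other sign were Eng 0.02 and Lcn2 0.03. In fits without 1 mouse the ranges of genes whose sign turned were Fabp4 -0.15 to 2.15, Id2 -0.23 to 0.45, Ifi27 -1.67 to 0.07, Bst2 -2.38 to 0.24, B2m -1.03 to 0.42, Trac -0.28 to 0.06, S100a9 -1.07 to 0.28, Ccnd1 -0.04 to 0.27, Umod -0.02 to 0.09, Npnt -0.02 to 0.41, Eng -0.10 to 0.02, Ftl1 -0.11 to 0.02, Gpx3 -0.88 to 0.54, Akr1b7 -0.24 to 0.03, Adipoq -6.15 to 9.08, Lcn2 -0.59 to 0.27, Ucp1 -4.94 to 14.09, Isg15 -3.37 to 0.47 and Cfd -5.49 to 7.66. The cause was not tested.

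The covariate of all adipocyte markers holds Pck1 and other genes that kidney expresses. Values above are void for genes that are part of the covariate, namely Fabp4, Lipe, Plin4, Adipoq, Ucp1 and Cfd with the adipocyte sum and Adipoq and Cfd with the 6 markers. Mitochondrial genes got no value in the fit that left them out, nor did genes that a filter or the limit on shared words removed, and thresholds do not alter list medians. No paired analysis was possible because PEC and HN share no replicate numbers.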
